A study of Mus musculus with 6 samples.

Results

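The 4 Notch receptor genes (Notch1, Notch2, Notch3 and Notch4), the ligand genes Jag1, Jag2 and Dll1 and the Fringe genes Lfng, Mfng and Rfng were followed in dental epithelial organoids (DEOs). These 10 genes were taken by symbol, each with 1 entry, from a deposited table of 47360 gene symbols. DEOs were grown from adult dental epithelial stem cells (aDESCs) of wild-type, 9-week-old female C57BL/6J mice, taken from the apical bud of the incisor and embedded in Matrigel. RNA was read after 14 days in culture. Every medium held, over a basal medium, Wnt3a- and R-spondin1-conditioned medium, N-acetylcysteine, the kinase inhibitor Y27632, 100 µg/ml EGF and 200 µg/ml Noggin, an inhibitor of BMP ligands. This was the whole of the +N medium, and the +NF medium added 100 µg/ml FGF10. The +ND and +NFD media were +N and +NF with dibenzazepine (DBZ), an inhibitor of γ-secretase, at 10 µM as the labels give it, while the methods text gives the same figure in mM. Each medium had 1 library, and 2 further media of the labels, +NJ and +NFJ, are not analysed here. The labels do not say how many mice gave the cells of a library.

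Notch is a receptor that is cut when a ligand on a neighbouring cell binds it. γ-Secretase makes the last cut, which frees the intracellular part of the receptor to enter the nucleus and work with the DNA-binding protein RBPJ, and DBZ blocks this step. Jag1, Jag2 and Dll1 encode ligands, and the Fringe enzymes add sugars to the receptors that shift their response between Delta and Jagged ligands. In the growing mouse incisor, Notch1 and Jag2 are known from the epithelium, where they mark neighbouring layers.

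Levels are in FPKM, which scales fragments to transcript length and library size, so that levels of different genes may be set side by side. Differences are given as log2 ratios of FPKM + 1, for genes that reached 1 FPKM in either library, and 2-fold was taken as the limit for calling a gene apart. Folds printed beside them are plain ratios of FPKM, without the added 1. With 1 library per medium no test was made, and the spread between cultures of a medium was not measured. The intervals given are 95% counting intervals on the ratio without the added 1, from approximate fragment numbers, and cover counting error only. The libraries held about 21900000 to 28900000 fragments, estimated from the lowest FPKM values, with +ND the shallowest at 0.798 times the depth of +N. All 8 markers of epithelium were at 1 FPKM or more in each library. In RNA from whole cultures, fewer cells of a type and less RNA per cell cannot be told apart.

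Of the ligand genes, Jag1 had its highest level in +N and its lowest in +ND, whereas Jag2 and Dll1 had their lowest level in +N and their highest in +NFD. Jag1 (ENSMUSG00000027276, chr2:137081456-137116644, minus strand, GRCm38) encodes Jagged1, and its level was 66.4 FPKM in +N and 44.4 in +NF, against 14.0 in +ND and 21.5 in +NFD. Both libraries with DBZ lay below both libraries without it, and the highest level was 4.75 times the lowest. Jag1 also had the widest range among the 10 genes. The Jag1 log2 ratio was -2.17 for +ND against +N, which is 4.75-fold lower, with -2.25 and an interval of -2.32 to -2.17 without the added 1. With FGF10 in both media, +NFD against +NF, it was -1.01, which is 2.06-fold lower, with an interval of -1.10 to -0.99. For FGF10, the Jag1 log2 ratio was -0.57 without DBZ (interval -0.62 to -0.54) and 0.59 with DBZ (0.54 to 0.71).

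Jag2 (ENSMUSG00000002799, chr12:112908590-112929495, minus strand), the gene of Jagged2, was at 40.3 FPKM in +N and 58.9 in +ND without FGF10, and 71.5 in +NF and 80.9 in +NFD with it. The level was thus higher in each medium with DBZ or FGF10 than in +N. The Jag2 log2 ratio was 0.54 for +ND against +N (interval 0.50 to 0.60), 0.18 for +NFD against +NF (0.14 to 0.22), 0.81 for +NF against +N (0.78 to 0.87) and 0.45 for +NFD against +ND (0.41 to 0.50). None of these reached 2-fold.

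Dll1 (ENSMUSG00000014773, chr17:15367354-15376872, minus strand) encodes Delta-like 1. Its level was 8.10 FPKM in +N and 15.4 in +ND without FGF10, and 18.2 in +NF and 20.5 in +NFD with it, the order of media seen for Jag2. The Dll1 log2 ratio was 1.08 for +NF against +N, 2.25-fold higher (interval 1.05 to 1.29), and 0.85 for +ND against +N, 1.90-fold higher (0.79 to 1.06). Once one agent was present the other was accompanied by smaller differences, with 0.16 for +NFD against +NF and 0.39 for +NFD against +ND. A lincRNA gene on the opposite strand, A930024N18Rik, overlaps Dll1 and was at 0.581 to 1.08 FPKM. The strand setting of the counting is not given in the sources used here, so it is not known whether overlapping reads of the pair were separated.

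**Figure D1:**
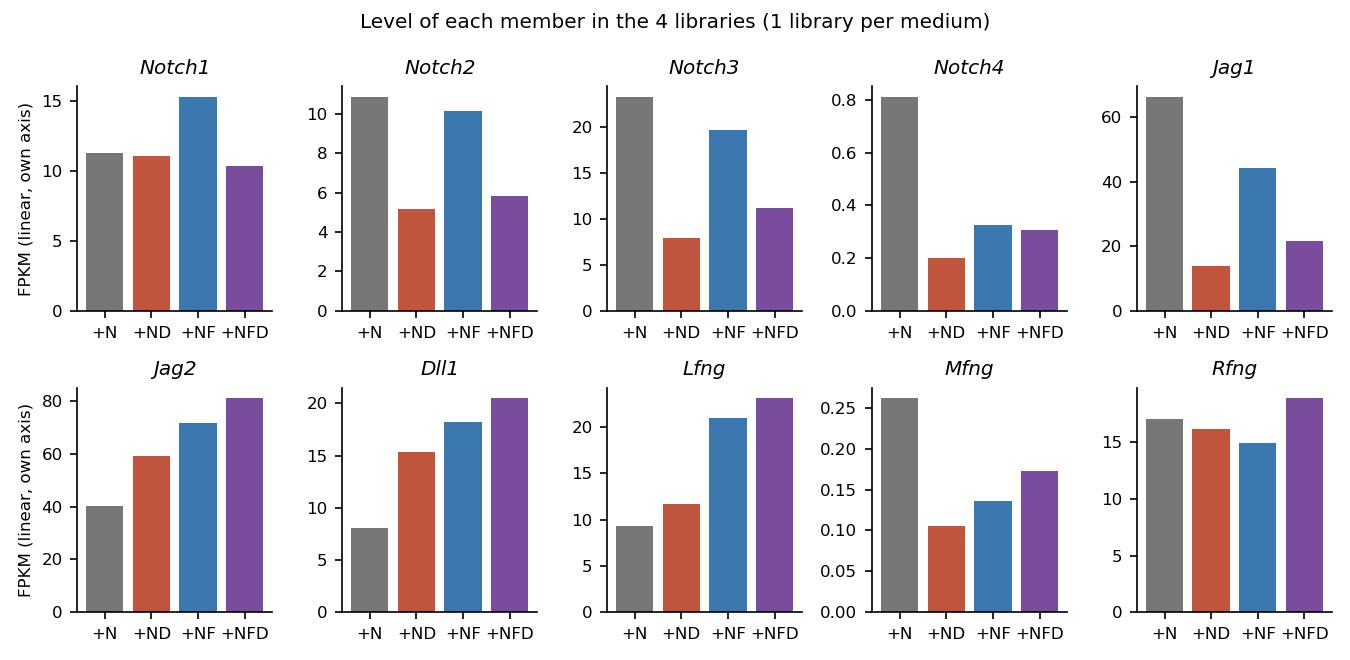
Level of each of the 10 genes in FPKM (vertical axis, linear from 0, with its own scale for each gene) in the +N, +ND, +NF and +NFD libraries, 1 bar per library and hence no error bar. Jag1 and the 4 receptor genes are lower in both libraries with DBZ, Notch1 and Notch4 by margins within counting error. Jag2, Dll1 and Lfng are lowest in +N and highest in +NFD.

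Each of the 4 receptor genes was lower in both DBZ libraries than in both libraries without it. For Notch1 the step from +N to +ND had a counting interval that held 0, as did that of Notch4 from +NF to +NFD. Notch3 (ENSMUSG00000038146, chr17:32120820-32166880, minus strand) was at 23.4 FPKM in +N and 19.7 in +NF, against 7.90 in +ND and 11.3 in +NFD. The Notch3 log2 ratio was -1.45 for +ND against +N, 2.96-fold lower (interval -1.65 to -1.48), and -0.76 for +NFD against +NF, 1.75-fold lower (-0.88 to -0.74). For FGF10 it was -0.23 without DBZ (-0.30 to -0.19) and 0.46 with DBZ (0.42 to 0.61).

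Notch2 (ENSMUSG00000027878, chr3:98013527-98150361, plus strand) was at 10.9 FPKM in +N and 10.1 in +NF, against 5.14 in +ND and 5.82 in +NFD. Its order of media, +N, +NF, +NFD and +ND from high to low, was that of Notch3 and Jag1. The Notch2 log2 ratio was -0.95 for +ND against +N (interval -1.18 to -0.98) and -0.70 for +NFD against +NF (-0.88 to -0.71). The FGF10 ratios of Notch2 were smaller, at -0.09 without DBZ and 0.15 with DBZ. The +ND against +N ratio lay close to the 2-fold limit, which it passed with a value of -1.06 when 0.1 in place of 1 was added to the FPKM and of -1.05 when ratios were centred on the median of all genes.

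Notch1 (ENSMUSG00000026923, chr2:26457903-26516663, minus strand), the receptor best known in stratified epithelia, was at 11.3 FPKM in +N and 15.3 in +NF, against 11.1 in +ND and 10.4 in +NFD. The Notch1 log2 ratio for DBZ was -0.02 without FGF10, with an interval of -0.11 to 0.05 that holds 0, and -0.52 with FGF10, with an interval of -0.63 to -0.49. For FGF10 it was 0.41 without DBZ and -0.09 with DBZ. The level was highest in +NF, and the other 3 libraries lay within 10.4 to 11.3 FPKM. 0610009E02Rik, which overlaps Notch1 on the opposite strand, was at 0.220 to 0.879 FPKM.

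Notch4 (ENSMUSG00000015468, chr17:34564268-34588503, plus strand), a receptor known mainly from endothelium, was below 1 FPKM in every library. It was at 0.812 FPKM in +N and 0.202 in +ND without FGF10, and 0.327 in +NF and 0.307 in +NFD with it, or about 147, 29.1, 61.7 and 58.6 fragments. Without the added 1, the Notch4 log2 ratio was -2.01 for +ND against +N (interval -2.64 to -1.43) and -0.09 for +NFD against +NF (-0.63 to 0.45). The second interval holds 0 and the first does not. The endothelial markers Pecam1, Cdh5 and Kdr were at 0.201 FPKM or less and Sox17 was listed at 0 in all 4 libraries. Eng, of the same list, was at 0.956 to 1.56 FPKM, Esam at 0.779 to 1.22 and Egfl7 at 8.03 to 18.9. The 12 endothelial markers summed to 10.1 to 22.1 FPKM, or 2.11 to 3.11 FPKM without Egfl7. Their part in the Notch4 level was not tested.

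Of the Fringe genes, Lfng was higher in both FGF10 libraries, Rfng varied little and Mfng was near the limit of detection. Lfng (ENSMUSG00000029570, chr5:140607320-140615545, plus strand), the gene of Lunatic fringe, was at 9.33 FPKM in +N and 11.7 in +ND without FGF10, and 20.9 in +NF and 23.1 in +NFD with it. The Lfng log2 ratio for FGF10 was 1.09 without DBZ, 2.24-fold higher (interval 1.02 to 1.31), and 0.93 with DBZ, 1.98-fold higher (0.85 to 1.12). For DBZ it was 0.29 without FGF10 and 0.14 with FGF10.

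Rfng (ENSMUSG00000025158, chr11:120780746-120784207, minus strand), the gene of Radical fringe, had the narrowest fold range of the 10 genes. It was at 17.0 FPKM in +N and 16.2 in +ND without FGF10, and 14.9 in +NF and 18.9 in +NFD with it, with the highest level 1.26 times the lowest. Its largest log2 ratio in size was 0.32, for +NFD against +NF. Mfng (ENSMUSG00000018169, chr15:78755882-78773475, minus strand), the gene of Manic fringe, was at 0.261, 0.105, 0.136 and 0.173 FPKM in +N, +ND, +NF and +NFD. These values rest on about 13.4, 4.28, 7.28 and 9.32 fragments, and all 4 Mfng intervals held 0, so that no difference was detectable at this depth.

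Setting the media in order for each gene gave 30 pairs of neighbours, of which 8 had a counting interval that held 0. These were +N and +ND for Notch1, 2 pairs for Notch4, all 3 pairs for Mfng and 2 pairs for Rfng. The order +N, +NF, +NFD, +ND from high to low was shared by Notch2, Notch3, Notch4 and Jag1. The order +NFD, +NF, +ND, +N was shared by Jag2, Dll1 and Lfng.

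**Figure D2:**
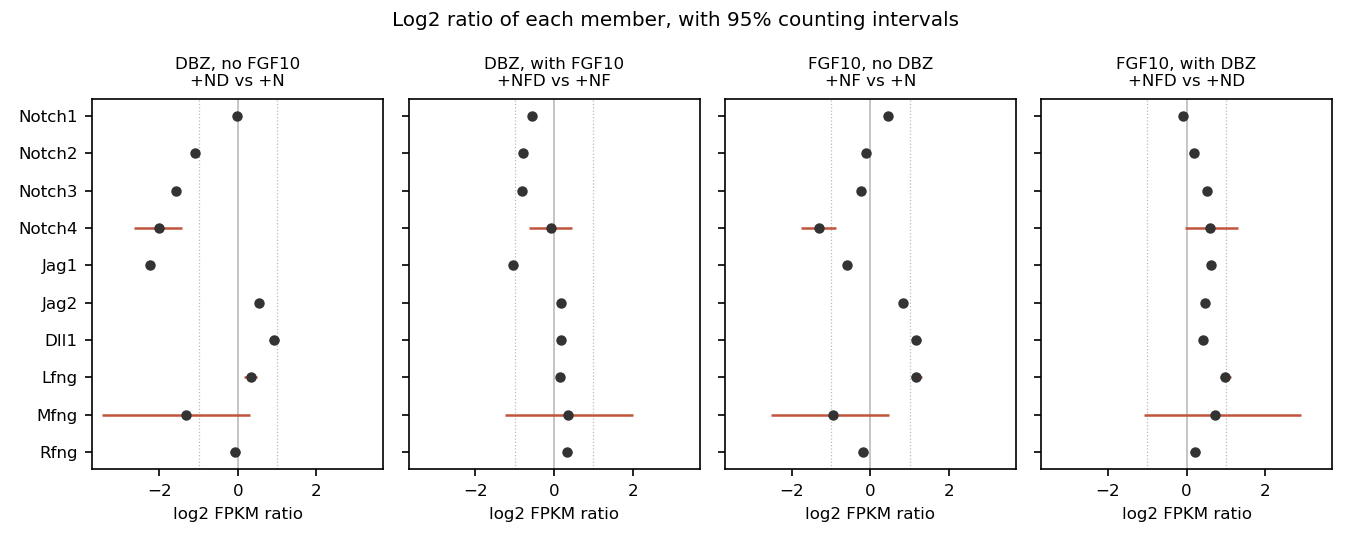
Log2 FPKM ratio without an added value (horizontal axis) of each of the 10 genes in the 4 comparisons, with 95% counting intervals as lines and dotted lines at 2-fold. Jag1 is past 2-fold lower in both DBZ comparisons, and the wide intervals are those of Notch4 and Mfng.

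RefSeq promoter windows of GRCm38.p6, running from 250 bases before to 50 bases after a start site, were matched for 9 of the 10 genes, all but Mfng. Dll1 had 2 windows. The Notch1 window, chr2:26503773-26504072, lies inside the gene span given above, so the start of that span was not searched. Each window was searched on both strands for TGGGAA, the core of RBPJ sites, and for GTGGGAA, which contains it. Of 32851 windows of all genes, 25.6% held TGGGAA and 6.38% held GTGGGAA. Lfng alone among the 9 genes held either, with a TGGGAA on the minus strand 135 bases before the start site and a second on the plus strand 108 bases before it, which is part of a GTGGGAA. The stretches of these windows upstream of the start given in both RefSeq and the deposited table are shown for Lfng, which holds the matches, and for Jag1 and Notch3, which were furthest apart with DBZ. Capitals mark the matches. Lfng is from chr5:140607091-140607319 (plus strand), Jag1 from chr2:137116645-137116770 (minus strand) and Notch3 from chr17:32166891-32167140 (minus strand), each written 5′ to 3′.
Lfng: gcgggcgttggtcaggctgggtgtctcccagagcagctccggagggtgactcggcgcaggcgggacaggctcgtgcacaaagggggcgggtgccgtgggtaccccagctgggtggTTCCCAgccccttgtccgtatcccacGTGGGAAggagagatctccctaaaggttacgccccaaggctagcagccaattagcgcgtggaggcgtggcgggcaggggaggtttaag
Jag1: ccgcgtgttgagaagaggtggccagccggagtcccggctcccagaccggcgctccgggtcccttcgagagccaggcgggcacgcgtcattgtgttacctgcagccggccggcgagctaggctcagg
Notch3: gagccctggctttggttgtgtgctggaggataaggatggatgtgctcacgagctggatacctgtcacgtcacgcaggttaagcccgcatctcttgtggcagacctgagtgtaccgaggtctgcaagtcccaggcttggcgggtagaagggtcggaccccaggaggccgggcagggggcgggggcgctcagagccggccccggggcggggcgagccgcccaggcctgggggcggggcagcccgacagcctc
A match is a description of these letters only, and no match says only that they are not in this window.

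The make-up of the ligand class differed between media, with Jag1 ahead in +N and Jag2 in the other libraries. Jag1 took 57.8% of the summed FPKM of the 3 ligand genes in +N and 33.1% in +NF, but 15.9% in +ND and 17.5% in +NFD. For Jag2 the shares were 35.1%, 66.7%, 53.3% and 65.8% over +N, +ND, +NF and +NFD. Jag1 therefore led its class in +N only, at 1.65 times Jag2, and Jag2 was 4.21 times Jag1 in +ND. Dll1 took 7.05% in +N and 13.6% to 17.4% in the other media. The ligand sum was 115, 88.3, 134 and 123 FPKM in +N, +ND, +NF and +NFD.

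The receptor sum was 46.3 FPKM in +N and 45.5 in +NF, against 24.3 in +ND and 27.7 in +NFD, so that both DBZ libraries lay below both libraries without it. Notch3 led with 50.4% in +N, 43.4% in +NF and 40.6% in +NFD, and Notch1 led in +ND with 45.5% against 32.5% for Notch3. Notch2 took at most 23.4%, its share in +N. The ratio of the ligand sum to the receptor sum was 2.48 in +N and 3.63 in +ND without FGF10, and 2.95 in +NF and 4.43 in +NFD with it. Among the Fringe genes, Rfng led without FGF10, with 64.0% in +N and 57.9% in +ND, and Lfng led with FGF10, with 58.1% in +NF and 54.8% in +NFD.

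**Figure D3:**
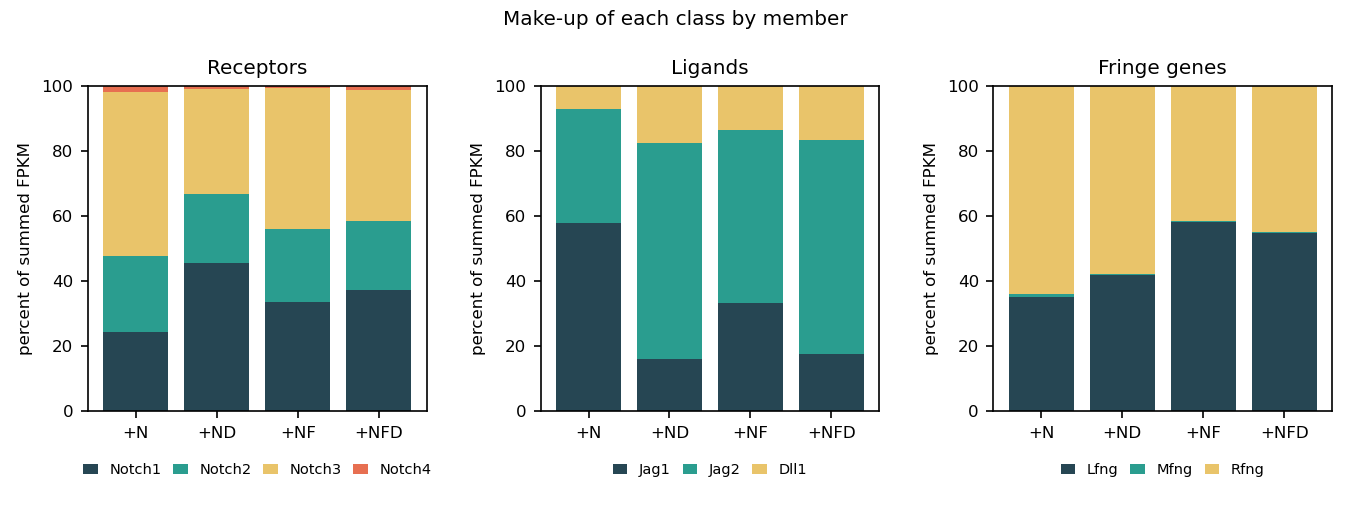
Share of each gene in the summed FPKM of its class (vertical axis, percent) in the 4 libraries, for receptors, ligands and Fringe genes. Jag1 holds 57.8% of the ligand sum in +N and 15.9% in +ND, and Lfng passes Rfng in the 2 media with FGF10.

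In each of the 4 comparisons, 8 of the 10 genes passed the filter, all but Notch4 and Mfng. For +ND against +N, Notch3 and Jag1 were at least 2-fold lower and none was higher, where 5.29% of all genes tested were 2-fold lower and 5.88% higher (11.2% in either direction). For +NFD against +NF, Jag1 alone was at least 2-fold lower and none was higher, where 2.69% of all genes were lower and 3.72% higher (6.41% in either direction). The median log2 ratio of the 8 genes was -0.05 for +ND against +N and -0.19 for +NFD against +NF, against 0.10 and 0.05 over all genes tested. Jag1 lay at percentile 1.18 of all ratios in the first and 2.61 in the second, and Notch3 at 2.81 and 4.14.

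For +NF against +N, Dll1 and Lfng were at least 2-fold higher, and none was lower, where 2.76% of all genes were higher and 2.44% lower (5.19% in either direction). Neither passed 2-fold after the ratios were centred on the median of all genes, with 0.97 for both. For +NFD against +ND, none of the 8 genes was 2-fold apart, where 3.39% of all genes were higher and 3.11% lower (6.5% in either direction). Centring also moved the split of all genes called. The share of higher calls went from 52.6% to 42.2% for +ND against +N, from 53.1% to 37.6% for +NF against +N, from 52.1% to 40.5% for +NFD against +ND and, the least of the 4, from 58.1% to 54.2% for +NFD against +NF.

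The DBZ comparisons with and without FGF10 share no library, and neither do the FGF10 comparisons with and without DBZ. Of the 8 genes, 7 had DBZ ratios of the same sign in both, all but Rfng, where 61.2% of 13748 genes at 1 FPKM or more in a library did. Jag1 was the only one at least 2-fold lower in both, as were 272 or 1.98% of those 13748 genes. For +ND against +N, the intervals of Notch1 (-0.11 to 0.05) and Rfng (-0.20 to 0.06) held 0, so the signs of these ratios are not set even by counting. For FGF10, Jag2, Dll1 and Lfng had ratios of the same sign in both, and 55.2% of all genes did. Notch1, Notch2, Notch3, Jag1 and Rfng had opposite signs. A DBZ and an FGF10 comparison hold a common library, so no likeness is read between them.

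**Figure D4:**
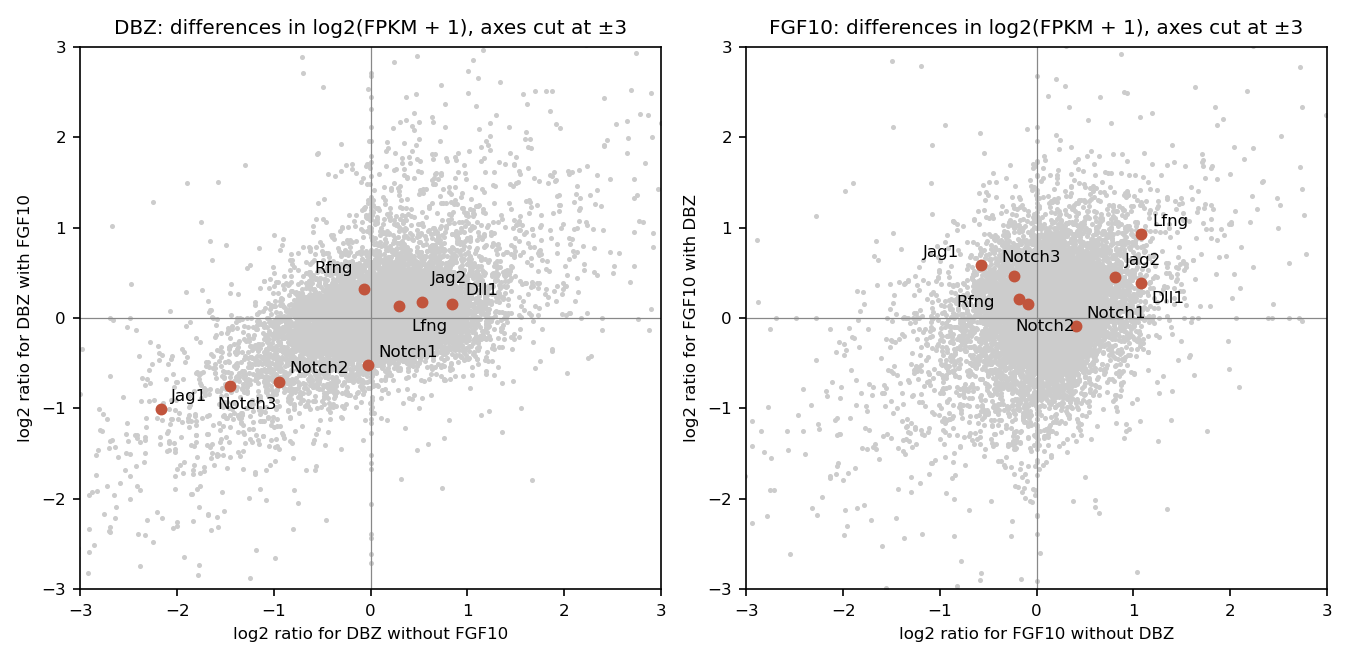
Log2 ratios of FPKM + 1 for DBZ without FGF10 (horizontal) against with FGF10 (vertical) on the left, and for FGF10 without against with DBZ on the right; grey points are all genes at 1 FPKM or more in a library and red points the 8 genes. Axes stop at 3 in both directions, and Jag1 and Notch3 sit at the lower left for DBZ while Lfng sits at the upper right for FGF10.

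Another 57 genes of the pathway were followed from lists made by role, and 45 passed the filter. For +ND against +N, 2 were at least 2-fold higher and 4 lower, with a median log2 ratio of 0.07. For +NFD against +NF it was 1 higher and 2 lower with a median of -0.02. With FGF10, 1 gene was 2-fold higher and none lower in each comparison, with medians of 0.18 for +NF against +N and 0.07 for +NFD against +ND. Of all genes tested, 11.2%, 6.41%, 5.19% and 6.5% were 2-fold apart in either direction in these comparisons, in the order given. By role, 2 of 5 other ligands, 6 of 6 genes of receptor maturation, 3 of 4 of ligand endocytosis, 8 of 8 of the nuclear complex and 9 of 11 of receptor turnover passed the filter. With the added 1, no gene of ligand endocytosis or the nuclear complex was 2-fold apart. With none added, Neurl1b, of ligand endocytosis, passed 2-fold for +ND against +N at 1.09 and for +NF against +N at 1.14, and Maml2, a coactivator of the nuclear complex, for +NF against +N at 1.23.

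Of the other ligands, Dlk2, a non-canonical ligand, was at 1.94 FPKM in +N and 7.92 in +ND without FGF10, and 1.72 in +NF and 9.75 in +NFD with it. The related Dlk1 was at 0.845 FPKM in +N and 1.40 in +ND, and at 7.34 in +NF and 12.7 in +NFD. Dlk2 was thus high in the DBZ libraries and Dlk1 in the FGF10 libraries. For +NF against +N, Dlk1 passed the filter only through +NF. Dll4, a ligand known from endothelium, did not reach 1 FPKM in any library. It was at 0.495 FPKM in +N and 0.0121 in +ND, and at 0.146 in +NF and 0.0179 in +NFD. These values rest on about 50.8, 0.988, 15.7 and 1.94 fragments.

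Furin, the protease that cuts the receptors as they mature, was at 105 FPKM in +N and 114 in +NF, against 48.4 in +ND and 76.6 in +NFD. All 7 genes of γ-secretase, the enzyme that DBZ inhibits, passed the filter and none was 2-fold apart with the added 1. Ncstn, its nicastrin subunit, came nearest, at 97.7 FPKM in +N and 49.8 in +ND, and at 130 in +NF and 95.3 in +NFD, and it passed 2-fold lower for +ND against +N once ratios were centred (-1.06). Aph1c, another subunit gene at a low level, was at 0.785 FPKM in +N and 1.01 in +ND, with 1.62 in +NF and 2.55 in +NFD. With none added its ratio passed 2-fold for FGF10 both without DBZ (1.05) and with DBZ (1.33). For +NF against +N, Aph1c passed the filter only through +NF. Rbpj, the DNA-binding partner of the cut receptor, was lowest in +N at 13.8 FPKM, with 27.2 in +ND, 26.5 in +NFD and 21.7 in +NF, and did not reach 2-fold on the log2 scale used. All 8 corepressor genes passed the filter without a 2-fold difference.

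Of the genes listed under receptor turnover, Dtx3l, of the Deltex family, was at 9.80 FPKM in +N and 9.29 in +NF, against 3.34 in +ND and 2.70 in +NFD. Its part in the turnover of Notch receptors was not tested. Lnx1, a ubiquitin ligase known to act on Numb, was at 1.06 FPKM in +N and 1.32 in +NF, against 6.02 in +ND and 3.21 in +NFD. Dtx3l was low and Lnx1 high in both DBZ libraries. Only 2 of the 8 target genes passed the filter. Nrarp, a target that restrains the pathway, was at 18.2 FPKM in +N and 9.12 in +NF, against 2.80 in +ND and 2.60 in +NFD. The repressor Hes1 was at 157 and 109 FPKM without DBZ, in +N and +NF, and at 74.6 and 80.1 FPKM in +ND and +NFD.

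**Figure D5:**
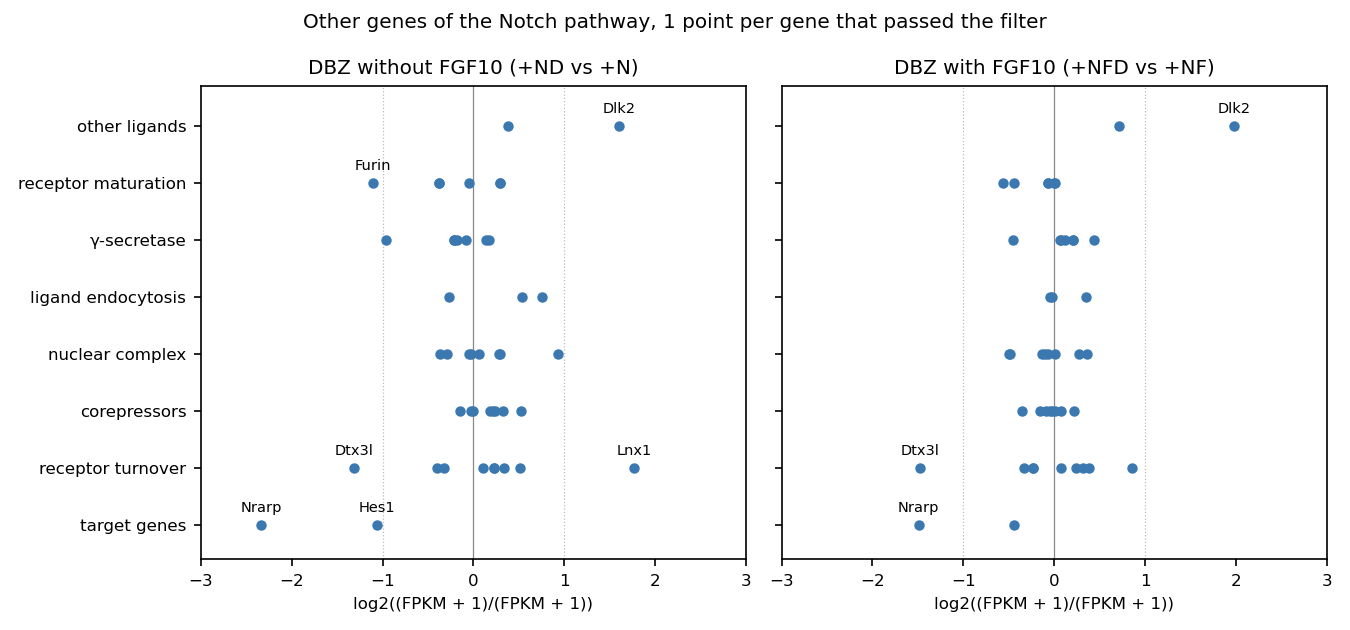
Log2 ratio of FPKM + 1 (horizontal axis) of the other pathway genes that passed the filter, 1 point per gene, by role (vertical axis), for DBZ without FGF10 on the left and with FGF10 on the right, with dotted lines at 2-fold. Nrarp, Dtx3l and Dlk2 are past 2-fold in both panels, and most points lie between the dotted lines.

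The genes with profiles most like that of Jag1 over the 4 libraries were Socs2, Car2, Engase, Dhrs3 and Mpped2. Likeness was the Euclidean distance between profiles of log2(FPKM + 1) centred on their mean, over 10466 genes at 5 FPKM or more in a library. Socs2, a suppressor of cytokine signalling, was nearest at a distance of 0.0607 and was at 56.5 FPKM in +N and 38.3 in +NF, against 12.5 in +ND and 18.6 in +NFD. Car2, a carbonic anhydrase, followed at 0.0751, and 71 genes lay within 0.5. These are 4 libraries only.

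Markers of other cell types differed between the same libraries. The sum of the 8 epithelial markers was 21676 FPKM in +N and 17851 in +NF, against 13735 in +ND and 15506 in +NFD, the order of Jag1, Notch2 and Notch3, and without Krt14 it was 8205 FPKM in +ND and 9025 to 9556 in the others. Taking the libraries as +N, +ND, +NF and +NFD, the 8 spinous markers summed to 895, 2595, 108 and 583 FPKM, or to 630, 613, 41.7 and 208 FPKM without Krtdap. For +ND against +N, 5 of them were 2-fold higher and 3 lower, where 5.88% of all genes tested were higher and 5.29% lower. The 5 markers of the stratum intermedium, the layer next to the ameloblasts, summed to 60.2, 9.00, 34.2 and 14.7 FPKM, again in the order of Jag1, Notch2 and Notch3. Most of this was Rhov, at 54.1 and 29.0 FPKM in +N and +NF against 1.81 and 1.06 FPKM in +ND and +NFD, and without it the sum was 6.09, 7.20, 5.21 and 13.6 FPKM. Odam, an ameloblast-associated gene of the dental epithelium, was at 6221 FPKM in +N and 5441 in +NF, against 2824 in +ND and 2602 in +NFD. Rhov and Odam were thus, like Jag1, lower in both DBZ libraries. The 10 dental epithelium markers summed to 6871, 3224, 6066 and 3640 FPKM, or to 650, 400, 625 and 1038 FPKM without Odam. Amelx, Ambn and Enam of that list were instead highest in +NFD, at 323, 26.4 and 1.97 FPKM. They were at most at 0.272, 0.340 and 0 FPKM in the other libraries. The 10 mural markers, of cells in which Notch3 is known, summed to 37.8, 40.7, 48.0 and 57.0 FPKM, or to 29.4, 27.5, 11.2 and 28.9 FPKM without Mcam. The 10 fibroblast markers summed to 280, 254, 176 and 660 FPKM. For +NFD against +NF, 7 of the 10 were at least 2-fold higher and none lower, where 3.72% and 2.69% of all genes tested were. For +ND against +N none was 2-fold apart, where 11.2% of all genes were. The 12 macrophage markers summed to 759, 628, 539 and 499 FPKM, or to 230, 221, 167 and 211 FPKM without Lyz2. The part of these markers in the levels of the Notch genes was not tested.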

How the data were processed

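RNA-seq libraries (TruSeq kit, Illumina sequencer) were made from DEOs. Per the labels and the methods, the authors ran FastQC 0.11.9 for read quality, Trim Galore 0.6.5 for trimming and TopHat2 2.1.1 for alignment to GRCm38, and deposited FPKM values from Cufflinks. The annotation release and strand setting are not given in the sources used here.

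From the deposited FPKM, entries sharing a symbol were summed (123 symbols, none of the 10 genes). Ratios were log2((FPKM + 1)/(FPKM + 1)) where the higher library had at least 1 FPKM, called at 2-fold. The added 1 understates ratios of low genes. The FPKM of 1 fragment was read from the lowest values of 8367 single-transcript genes of at least 1000 bases in GENCODE M21, and gave the depth and approximate fragments over each gene's longest transcript. Intervals were exact binomial (95%). On simulated data for +ND against +N, over 9241 genes, 200 of 200 changed genes were called. The planted changes lay well past the 2-fold limit and the noise was counting error only. This run therefore checks the code and says nothing of ratios near 2-fold or of differences between cultures. Members and lists were chosen with earlier results of these data known. Pathway genes were named when 2-fold apart, with a few others chosen after their values were seen (Ncstn, Aph1c, Neurl1b, Maml2, Rbpj, Dll4), as were the markers named singly. Python 3.11.15, pandas 2.3.3 and scipy 1.17.1 were used.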

Additional observations from a re-analysis of the deposited data

Results flagged for a closer look

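For 5 genes the FGF10 ratio had opposite signs in the 2 DBZ backgrounds, and the difference was not tested, since each medium had 1 library. Over all genes at 1 FPKM or more in a library, 55.2% had FGF10 ratios of the same sign in both, and 61.2% had DBZ ratios of the same sign. The log2 ratio for FGF10 with DBZ minus that without DBZ was -0.4971 for Notch1, 0.2449 for Notch2, 0.6958 for Notch3, 1.157 for Jag1 and 0.3871 for Rfng. For Rfng the DBZ ratio also had opposite signs, at -0.07 without and 0.32 with FGF10, with the same difference of 0.3871. The interval without FGF10, -0.20 to 0.06, held 0. By construction the difference is the same number for DBZ and for FGF10. Among genes at 1 FPKM or more in a library, Jag1 lay at percentile 97.3 and Notch3 at 91.6 of these differences. Rfng lay at percentile 79.7, Notch2 at 70.7 and Notch1 at 18.4. The median size of the difference over all these genes was 0.34, which is above that of Notch2 and near that of Rfng.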

How the results depend on the processing

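The 224 ratios recomputed for the 8 genes that passed the filter, without Notch4 and Mfng, under other settings (pseudocount, filter, scaling, entries sharing a symbol) included none of another sign than the value reported, and 29 moved by more than the half-width of their counting interval. With a 1.5-fold limit, which admits more genes by construction, 4 genes were apart for +ND against +N (2 at 2-fold) and 3 for +NFD against +NF (1 at 2-fold). For +NF against +N they numbered 3 (2 at 2-fold), and for +NFD against +ND 2 (0 at 2-fold). The other pathway genes then numbered 9 for +ND against +N, 5 for +NFD against +NF, 6 for +NF against +N and 8 for +NFD against +ND. For +NF against +N, pathway genes apart numbered 3 with an added 0.1 and 4 with none, against 1 with an added 1. For +NFD against +ND, they numbered 2 with either. The share of all genes apart was not computed at 1.5-fold or with another added value, so these counts are not read as results about the genes. Centred on the median of all genes (0.12), 0 of the 8 genes and 2 pathway genes were apart for +NF against +N. Where no construction is given, the cause was not tested.

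No paired analysis was possible because each medium had 1 library, and no library was left out, since none would remain for its medium. Depth limits Mfng, at fewer than 14 fragments in each library, and to a lesser degree Notch4. The intervals say nothing of differences between cultures.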
